A study of Mus musculus with 11 samples.

Results

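Ptpn5 encodes the striatal-enriched protein tyrosine phosphatase, known as STEP. It is 1 gene of the 54232 in a count table of mouse whole ovaries, and it was chosen by its adjusted p, as the single gene that passed the test between 24 and 18 months. That choice rests on the 24 and 18 month samples, and each of the other age comparisons uses one of these groups again. The values of Ptpn5 are therefore described at every age without a test.

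STEP is best known from neurons of the striatum, hippocampus and cortex. It removes phosphate from tyrosines of the MAP kinases ERK and p38, which it grips through a kinase interaction motif, and from the kinases Fyn and Pyk2 and the glutamate receptor subunits GluN2B and GluA2. Protein kinase A blocks substrate binding by phosphorylating that motif, and calcineurin, acting through protein phosphatase 1, reverses the block. In ovarian follicles, ERK signalling relays the surge of luteinising hormone.

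The study sequenced polyadenylated RNA from whole ovaries of mice with the genotype WT at 2, 18 and 24 months, which its design text calls reproductively young, reproductively old and post-reproductive. There were 4, 4 and 3 libraries at these ages, and no treatment is labelled. The library names give 8 weeks for the 2 month group and 22 months for the 24 month group. The labels do not say whether libraries came from separate animals, so p-values measure the spread between these samples, which may be technical.

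Libraries held 26061630 to 33407509 counts, except 18 month replicates 3 and 4 with 5231724 and 8892915. Replicates 3 and 4 differed by little more than sampling noise, with a chi-square of 1.10 per gene over 17173 genes. The next most alike pair had 28.74. Replicates 3 and 4 were summed and counted as 1 sample, called replicate 3, which left 4, 3 and 3 samples. Enough counts for testing were found in 20331 genes. Of 9 oocyte markers all were detected at each age, and all fell at 24 against 2 months, where 15.8% of all genes fell.

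The gene lies at chr7:47077795-47133684 on the minus strand of mm10 (ENSMUSG00000030854). GENCODE M21 gives it 11 transcripts, of which 2 are coding, with 14 exons each and starts at 47133684 and 47132717. Both coding transcripts use the same start codon at chr7:47112743-47112745, and counts per gene do not separate them. The sequences just ahead of both starts are shown because the counts do not say which start was used. They come from RefSeq (GRCm38.p6, minus strand, 5′ to 3′), in lower case with GC boxes in capitals. The upstream one covers chr7:47133685-47133934, and the downstream one chr7:47132718-47132848, inside the first intron of the longer coding transcript.
Upstream start: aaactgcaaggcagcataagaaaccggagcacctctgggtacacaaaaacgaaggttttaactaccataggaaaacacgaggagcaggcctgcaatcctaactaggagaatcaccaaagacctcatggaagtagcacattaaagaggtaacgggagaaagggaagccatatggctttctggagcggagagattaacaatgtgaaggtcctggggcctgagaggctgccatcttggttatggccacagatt
Downstream start: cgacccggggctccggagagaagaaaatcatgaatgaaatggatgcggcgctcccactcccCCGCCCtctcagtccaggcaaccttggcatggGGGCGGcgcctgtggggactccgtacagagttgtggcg

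The upstream stretch holds 5 CpG dinucleotides and the downstream one 10. RefSeq places the upstream start at the same base as GENCODE and the downstream start at 47132598, 119 bases further into the gene, and the stretch shown keeps only bases ahead of both. Over whole RefSeq windows, running from 250 bases before to 50 after the RefSeq start, the upstream start had 48.7% G and C, with 34.4% of the 32851 mouse windows lower. The downstream start had 69%, with 88.9% of windows lower. The GC box GGGCGG, searched on both strands with overlaps counted, occurred 5 times in the downstream window, 2 of them in the stretch shown, and 0 times in the upstream window, and 35.7% of all windows held it. TATAAA (in 13.6% of all windows), TGACG (20.8%), CACGTG (7.15%) and AGGTCA (16.3%) were in neither window on either strand, which says only that these letters are absent there.

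Ptpn5 was low in young and old ovaries and higher in post-reproductive ones. Its raw counts at 2 months were 39, 43, 23 and 49, or 1.34, 1.34, 0.934 and 1.49 counts per 1e+06 (CPM) after TMM scaling, a correction for differences in library composition. At 18 months the counts were 61, 50 and 43, or 2.16, 1.58 and 2.85 CPM, the last being the summed sample. At 24 months they were 364, 511 and 491, or 13.6, 14.5 and 14.3 CPM. Every 24 month sample lay above every sample of the other ages, whereas the lowest 18 month sample, at 1.58 CPM, lay close to the highest 2 month sample, at 1.49 CPM.

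**Figure D1:**
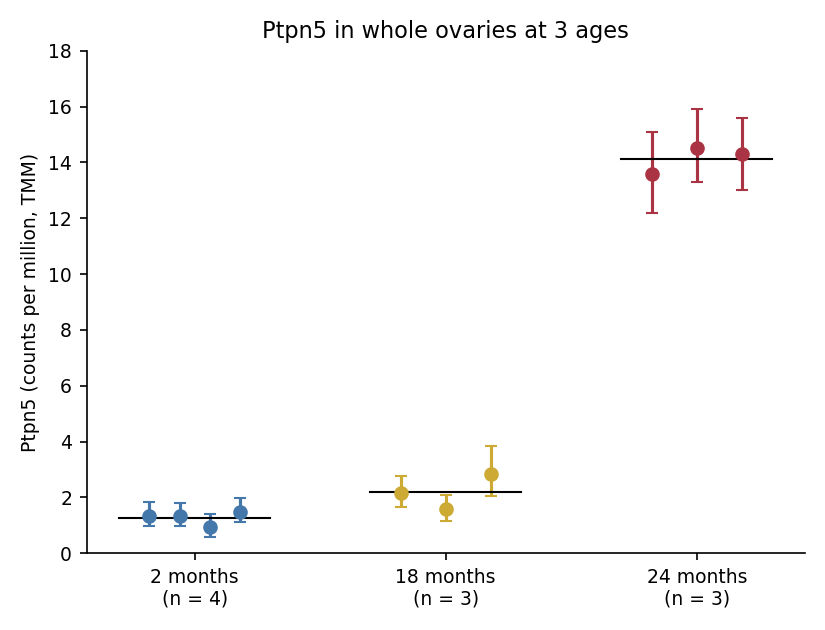
Ptpn5 level in CPM after TMM scaling (y axis) in each sample at 2, 18 and 24 months (x axis). Points are samples, vertical bars are 95% Poisson counting intervals and horizontal lines are group means; the 3 samples at 24 months sit between 13.6 and 14.5 CPM, and the younger ones between 0.934 and 2.85 CPM.

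The mean level was 1.28 ± 0.239 CPM at 2 months (SD, n = 4), 2.2 ± 0.637 CPM at 18 months (n = 3) and 14.1 ± 0.493 CPM at 24 months (n = 3). The fitted log2 fold change was 2.70 (SE 0.269) at 24 against 18 months, a 6.48-fold difference, and 3.46 (SE 0.248) at 24 against 2 months, an 11-fold difference. At 18 against 2 months it was 0.77 (SE 0.244), or 1.7-fold. Comparing single samples, the lowest at 24 months was 4.77 times the highest at 18 months, while the lowest at 18 months was 1.06 times the highest at 2 months. In whole-organ RNA, more cells carrying the transcript and more transcript per cell cannot be told apart.

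The order of levels was 2, 18 and 24 months, and no pair of ages overlapped. Without overlap, 6.73% of all tested genes were higher at 24 than at 18 months, 21.7% at 24 than at 2 months and 13.7% at 18 than at 2 months. The gap between the nearest 18 and 2 month samples, 1.58 against 1.49 CPM, was smaller than the SD of either group. The 95% counting intervals of those samples, 1.17 to 2.08 at 18 months and 1.1 to 1.97 CPM at 2 months, overlapped almost fully. By contrast, the lowest interval bound at 24 months was 12.2 CPM and the highest bound at 18 months was 3.84 CPM.

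The 24 month samples lay close together. Their SD of 0.493 CPM was below the 0.668 CPM that counting alone gives at these depths, and the coefficient of variation was 3.49%. At 2 months the observed SD was 0.239 CPM, where counting gives 0.209 CPM, and at 18 months it was 0.637 CPM, where counting gives 0.312 CPM. Before they were summed, 18 month libraries 3 and 4 gave 2.87 and 2.85 CPM from 16 and 27 counts.

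Ptpn5 combined a large difference with a small spread. Its log2 fold change at 24 against 18 months was exceeded by 158 genes. There were 357 genes with a log2 fold change of 2 or more, and in 62 of them the groups did not overlap. The SD of log2 CPM among the 3 samples at 24 months was 0.05 for Ptpn5, the lowest of the 357 genes, whose next lowest was 0.19 and whose median was 2.46; the median over all genes tested was 0.27. Its fitted SE of 0.269 was close to the median of 0.272 over all genes, whereas the 357 genes had a median SE of 1.14 and 0 of them had a smaller one. These values belong to the contrast that picked the gene and are given as description.

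**Figure D2:**
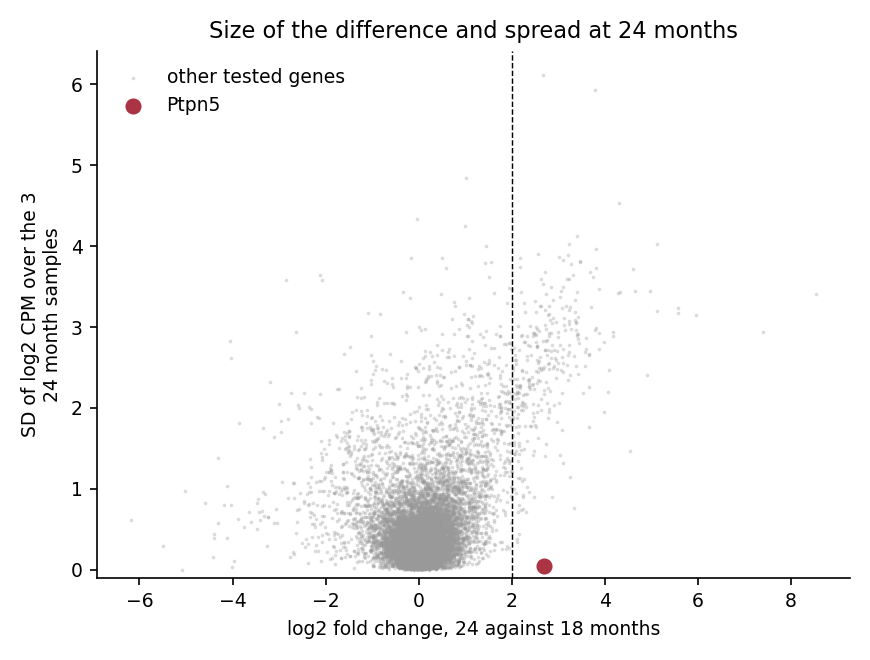
Each point is a tested gene, by its log2 fold change at 24 against 18 months (x axis) and the SD of its log2 CPM over the 3 samples at 24 months (y axis). Tested genes with a low mean CPM over all samples are not drawn. The dashed line marks a log2 fold change of 2. Ptpn5, in red at 2.70 and 0.05, lies at the lower edge among genes right of the line. The median SD of all 357 tested genes with a log2 fold change of 2 or more, drawn or not, is 2.46.

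The test between 24 and 18 months called 1 of 20331 genes (0.00492%) at an adjusted p below 0.05, Ptpn5, with an adjusted p of 0.0372 in edgeR's quasi-likelihood test. The call lay close to the threshold. It was lost in the replicate block fit, which called 0 genes, and it held in 2 of 10 fits that each left out 1 sample. Without 2 month replicate 3 its adjusted p was 0.0475 and without 18 month replicate 3 it was 0.0419 (edgeR). In the other 8 fits it ran from 0.0514 without 24 month replicate 3 to 0.297 without 18 month replicate 1. The log2 fold change stayed between 2.50 and 2.92 in all 10. DESeq2 called 187 genes in this comparison and placed Ptpn5 first by p.

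The genes next in order of p lay outside the threshold. Coch, which encodes the extracellular matrix protein cochlin, averaged 5.61 ± 2.01 CPM at 24 months and 34.4 ± 15.3 CPM at 18 months (adjusted p = 0.314). Mmel1, a membrane metalloendopeptidase gene, averaged 18.6 ± 1.39 CPM at 24 months and 79.9 ± 30.4 at 18 months. For Il1rl1, the interleukin 33 receptor, the means were 5.34 ± 3.63 CPM at 24 months and 0.555 ± 0.0214 CPM at 18 months. H2-Q6, a class Ib MHC gene whose reads may be shared with near-identical copies, averaged 24.2 ± 2.99 CPM at 24 months and 11.2 ± 2 at 18 months. Hmcn2, which encodes an extracellular hemicentin, averaged 5.6 ± 1.18 CPM at 24 months and 1.52 ± 0.578 at 18 months. From Mmel1 to Hmcn2 each adjusted p was 0.387 (n = 3 per group, edgeR).

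In 829 genes (4.08% of those tested) every 24 month sample lay above every sample of both younger ages, and in 36 of these the log2 fold change was also at least 2 against both. Ptpn5 had the lowest 24 month SD of the 36. This is description only, since the samples that picked Ptpn5 also picked the 36. Among the others were Muc3a, a membrane mucin gene, Ackr1, an atypical chemokine receptor gene, and Slc6a2, the noradrenaline transporter gene, whose 24 month SDs of log2 CPM were 0.45, 0.90 and 2.40. Ackr1 and Slc6a2 were chosen after their values were seen.

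The course of Ptpn5 was set beside those of its neighbours on chromosome 7. Within 1 Mb of either end lie 83 other genes of the table. No library had a count for 20 of them, and 26 could be tested. Of the 26, 0 were called in either direction between 24 and 18 months by edgeR, where 0.00492% of all genes were called. An unadjusted p below 0.05 was found for 2, and DESeq2 called 1, Tph1. Counts at an unadjusted p, here and below, are given without the share of all genes, so no excess can be read from them. Their log2 fold changes ran from -2.59 to 4.54 with a median of 0.08, where the median was 0.03 over all genes and 0.04 over the 1565 tested genes of chromosome 7.

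The closest tested neighbours were a transcript inside Ptpn5 and a pseudogene beside it. Gm14377, an antisense gene on the plus strand within Ptpn5, had 13, 9, 9 and 29 counts at 2 months, 14, 24 and 8 at 18 months, and 12, 24 and 67 at 24 months. The 24 month samples lay in the range of the younger ones except for replicate 3, and the log2 fold change at 24 against 18 months was 0.78 (SE 0.589, adjusted p = 0.644). The library kit keeps strand, but whether the counting used it is not stated in the labels. If it did not, reads of Ptpn5 and Gm14377 in the region they share cannot be told apart. The 12 to 67 counts of Gm14377 at 24 months compare with 364 to 511 of Ptpn5.

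The unitary pseudogene LOC102637012, 3.11 kb from the 3′ end of Ptpn5 on the same strand, had 14, 43, 12 and 32 counts at 2 months, 23, 28 and 10 at 18 months, and 37, 56 and 41 at 24 months. In CPM, its 24 month samples (1.38, 1.59 and 1.19) were above those at 18 months (0.815, 0.883 and 0.663), but 2 month replicate 2 reached 1.34 CPM. Its log2 fold change at 24 against 18 months was 0.81 (SE 0.407, adjusted p = 0.523). Unlike Ptpn5, it overlapped between 24 and 2 months.

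Tmem86a, which encodes a lysoplasmalogenase, lies 23 kb away. It had 452 to 530 CPM at 2 months, 478, 345 and 390 CPM at 18 months, and 640, 627 and 341 CPM at 24 months. The ages overlapped, with a log2 fold change of 0.40 at 24 against 18 months (SE 0.229, adjusted p = 0.557). The short non-coding genes Gm45474 and Gm32031 and the chromatin factor gene Spty2d1, at 27.5, 68.8 and 69.4 kb, had log2 fold changes of 0.81, 0.51 and 0.08 in that comparison (adjusted p 0.573, 0.602 and 0.825). On the other side the next tested gene was Mrgpra4, a Mas-related receptor gene 847 kb away, with 41, 3 and 2 counts at 24 months and 273, 0 and 0 at 18 months (log2 fold change -2.59, adjusted p = 0.642).

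The neighbour with the largest difference at 24 against 18 months was Tph1, the tryptophan hydroxylase of peripheral serotonin synthesis, 405 kb away. Its counts were 6, 3, 0 and 13 at 2 months, 2, 1 and 0 at 18 months, and 47, 20 and 25 at 24 months. All 24 month samples were above the younger ones, and the 18 month ones lay within the 2 month range. Like Ptpn5, it was among the 36 genes described above as higher than at both younger ages. The log2 fold change was 4.54 (SE 1.06, adjusted p = 0.387) at 24 against 18 months. Relative to 2 months it rose by 2.46 at 24 months (SE 0.754, adjusted p = 0.0315), a call lost without any 1 of 2 month replicates 1 and 2 and 24 month replicates 1 and 3 (adjusted p up to 0.0984).

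At 24 against 2 months 2 of the 26 neighbours rose and 5 fell, or 26.9%, where 35% of all genes were called, 19.2% higher and 15.8% lower. Kcnc1, a voltage-gated potassium channel gene, had 0.448, 1.22 and 3.29 CPM at 24 months and 0.138 to 0.183 CPM at 2 months, and rose by 3.34 on the log2 scale (SE 0.63, adjusted p = 0.00554). The lincRNA C86187 fell by 3.81 on that scale (adjusted p = 0.00578), and Nomo1, which encodes a membrane protein of the endoplasmic reticulum, fell by 0.67 (adjusted p = 0.00491). The calls of Kcnc1, C86187 and Nomo1 held without each sample in turn. Ldha, the lactate dehydrogenase gene, Tsg101, of endosomal sorting, and Gtf2h1, of transcription factor IIH, fell by 0.76, 0.36 and 0.40 (adjusted p 0.0178, 0.0138 and 0.0258). These 3 calls were lost without 24 month replicate 2, with adjusted p up to 0.0686, 0.0567 and 0.076 over the omissions, and with library totals in place of TMM scaling. Ldha was lost also without 24 month replicate 3, and Gtf2h1 without 24 month replicates 1 or 3 or 2 month replicates 1 or 4.

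At 18 against 2 months 1 neighbour rose and 2 fell (11.5%), where 11.6% of all genes were called, 6.04% higher and 5.51% lower. Kcnc1 rose by 2.65 on the log2 scale (adjusted p = 0.0305), while Nomo1 and C86187 fell by 0.46 and 3.17 (adjusted p 0.0405 and 0.0237). Each of these calls was lost in 5 to 8 of the fits that left out 1 sample, and without 2 month replicate 1 the count of calls among the 26 was 0.

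**Figure D3:**
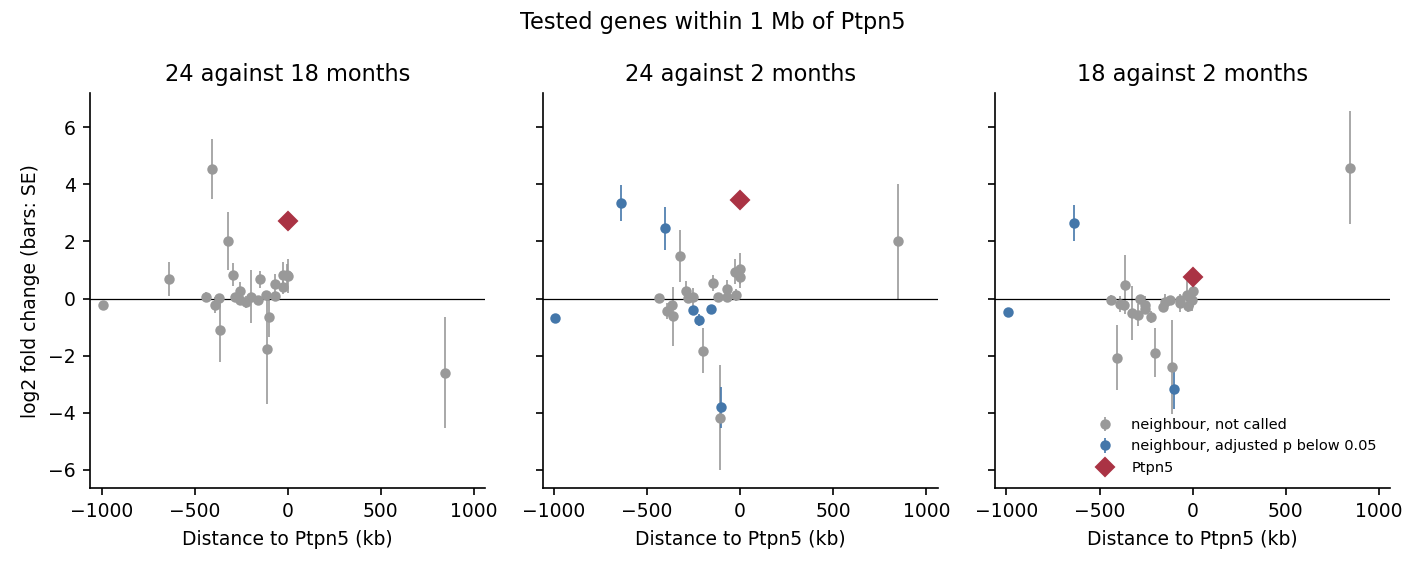
Log2 fold change with its SE (y axis) against distance from Ptpn5 in kb (x axis) for the 26 tested genes within 1 Mb and for Ptpn5 (red), in the 3 age comparisons; blue marks neighbours with an adjusted p below 0.05. In the 24 against 18 month panel the neighbours have a median of 0.08 and 0 are blue.

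The close relatives of Ptpn5 are Ptpn7 and Ptprr. Ptpn7, the lymphoid phosphatase with the same kinase interaction motif, had 1.34, 1.37, 1.87 and 1.86 CPM at 2 months, 4.43, 2.77 and 3.31 CPM at 18 months, and 3.43, 4.27 and 6.34 CPM at 24 months. Its 24 and 18 month samples overlapped (log2 fold change 0.42, SE 0.303, adjusted p = 0.634), while both ages lay above 2 months. It rose by 1.54 at 24 against 2 months (SE 0.284, adjusted p = 0.00514), also without each sample in turn. The rise of 1.12 at 18 against 2 months (SE 0.286, adjusted p = 0.0357) was lost in 6 of the 10 fits without 1 sample. Ptprr, the receptor-type member of the family, averaged 1.1 ± 0.632, 0.856 ± 0.354 and 1.29 ± 0.307 CPM at 2, 18 and 24 months. Its log2 fold changes were 0.63, 0.23 and -0.40 at 24 against 18, 24 against 2 and 18 against 2 months, with adjusted p of 0.679, 0.732 and 0.636.

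Levels were also set per kilobase of exon, over the merged exons of all annotated transcripts of a gene. Where these are longer than the RNA expressed, the level is set too low, so comparisons between genes are rough. On this scale Ptpn5 stood low among the 38 classical protein tyrosine phosphatase genes. Its level was 0.22 ± 0.0413 CPM per kb at 2 months, rank 34 of 38, and 0.379 ± 0.11 CPM per kb at 18 months, rank 31. At 24 months it was 2.44 ± 0.0851 CPM per kb, rank 25. Ptpn7 stood at 0.264, 0.575 and 0.767 CPM per kb at 2, 18 and 24 months, and Ptprr at 0.185, 0.144 and 0.218 CPM per kb. At 24 months the mean of Ptpn5 was above those of both relatives, and at 2 and 18 months it lay between them.

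**Figure D4:**
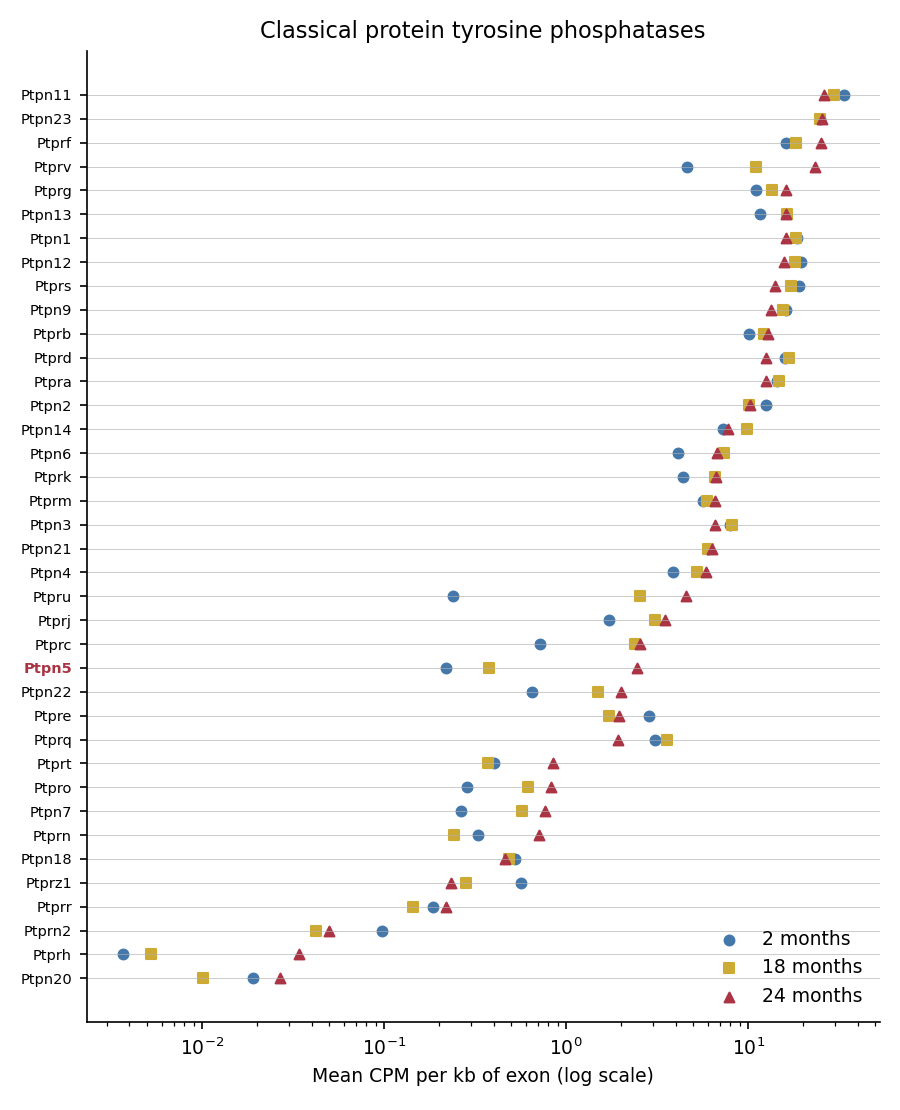
Mean level in CPM per kb of exon (log x axis) of each classical protein tyrosine phosphatase gene at 2, 18 and 24 months, ordered by the 24 month level. Ptpn5 (red label) lies at 0.22, 0.379 and 2.44 CPM per kb, with ranks 34, 31 and 25 of 38.

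Among 9 genes for STEP substrates 0 were called at 24 against 18 months by edgeR and by DESeq2, 2 had an unadjusted p below 0.05, and the median log2 fold change was -0.19, where that of all genes was 0.03. Relative to 2 months, 1 rose and 2 fell at 24 months, where 19.2% of all genes rose and 15.8% fell. At 18 against 2 months 0 were called by edgeR, 1 with an unadjusted p below 0.05, Grin2b, which DESeq2 called. Grin2b, which encodes GluN2B, had 2.93, 5.07, 2.6 and 5.51 CPM at 2 months, 6.02, 6.87 and 14 CPM at 18 months, and 10.7, 23.2 and 29.8 CPM at 24 months. Its means followed the order of age as those of Ptpn5 did, but its 24 and 18 month samples overlapped. It rose by 2.40 at 24 against 2 months (SE 0.435, adjusted p = 0.00499) and kept that call without each sample in turn. The log2 fold change was 1.26 at 24 against 18 months (SE 0.464, adjusted p = 0.464) and 1.14 at 18 against 2 months (SE 0.431, adjusted p = 0.111).

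Mapk3, encoding ERK1, averaged 294 ± 42.8, 290 ± 24.8 and 215 ± 14.1 CPM at 2, 18 and 24 months and fell by 0.45 on the log2 scale at 24 against 2 months (adjusted p = 0.0261). The call was lost without 24 month replicate 2 or 3 or 2 month replicate 2, with adjusted p over all omissions of up to 0.0956, and with library totals in place of TMM scaling. The p38 gene Mapk14 averaged 94.1 ± 7.52, 94.5 ± 4.59 and 91.2 ± 8.34 CPM at 2, 18 and 24 months, and passed no comparison.

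Fyn averaged 164 ± 30.7, 141 ± 20.2 and 132 ± 10.4 CPM at 2, 18 and 24 months. Ptk2b, encoding Pyk2, averaged 103 ± 36.5, 127 ± 44.8 and 78.2 ± 24.8 CPM, and Gria2, encoding GluA2, 0.864 ± 0.177, 0.687 ± 0.0823 and 0.595 ± 0.551 CPM at these ages. Ptpra, a receptor phosphatase gene, averaged 157 ± 22.8, 161 ± 32.8 and 135 ± 3.55 CPM, and Nckipsd, encoding the actin regulator SPIN90, 13.9 ± 0.727, 14.7 ± 1.25 and 13.9 ± 0.665 CPM. The edgeR test called none of these 5 in any comparison, with adjusted p from 0.14 to 0.964.

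Of 20 regulators of STEP, 19 could be tested, Drd1 being too low. Between 24 and 18 months 0 were called by edgeR and by DESeq2, and 4 had an unadjusted p below 0.05. Relative to 2 months, 2 rose and 4 fell at 24 months, where 19.2% of all genes rose and 15.8% fell. Ppp1cc and Ppp1ca, catalytic subunits of protein phosphatase 1, fell by 0.79 and 0.48 (adjusted p 0.00678 and 0.0102) and kept these calls without each sample in turn. Prkaca, the catalytic subunit of protein kinase A, averaged 130 ± 34.7 CPM at 24 months and 239 ± 64.5 CPM at 2 months and fell by 0.88 (adjusted p = 0.0163), a call lost without 24 month replicate 2 or 3 (adjusted p up to 0.054). The calcineurin subunit gene Ppp3cb rose by 0.31 (adjusted p = 0.0272), a call lost without any 1 of 2 month replicates 1, 2 and 3 and 24 month replicates 1 and 3 (adjusted p up to 0.0885). The 18 against 2 month comparison called 0 regulators by edgeR and 2 by DESeq2, Ppp3cb and Ppp1ca, and 4 had an unadjusted p below 0.05.

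Of 11 members of the ERK cascade upstream of these kinases 6 fell and 0 rose at 24 against 2 months, with a median log2 fold change of -0.33; 15.8% of all genes fell. Hras averaged 27.6 ± 4.5 CPM at 24 months and 45.6 ± 1.38 CPM at 2 months and fell by 0.73 on the log2 scale (adjusted p = 0.00422). The call held without each sample in turn. The falls of Map2k1, Map2k2 and Nras were lost in 5, 7 and 4 of the 10 fits without 1 sample. Between 24 and 18 months 0 were called by edgeR and 1 by DESeq2, and 1 had an unadjusted p below 0.05. Hras was the 1 member that fell at 18 against 2 months, where 5.51% of all genes fell. It fell by 0.51 (adjusted p = 0.032), a call lost in 5 of these 10 fits.

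Genes that ERK signalling induces or that feed back on it numbered 16, of which 4 rose and 2 fell at 24 against 2 months. These shares are near those of all genes, of which 19.2% rose and 15.8% fell. Etv5, an ERK-induced transcription factor gene, rose by 0.66 (adjusted p = 0.00579) and Spry4, a feedback inhibitor, fell by 1.17 (adjusted p = 0.0106), and both held without each sample in turn. Of the 16, 2 rose at 18 against 2 months, where 6.04% of all genes rose, Egr2 by 2.03 and Etv5 by 0.57 (adjusted p 0.0197 and 0.0244). That of Egr2 was lost without 2 month replicate 1 or 2 (adjusted p up to 0.0627) and that of Etv5 in 5 of the 10 fits. Between 24 and 18 months 0 were called by edgeR and by DESeq2, and 1 had an unadjusted p below 0.05.

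Among 10 MAP kinase phosphatases, dual-specificity enzymes that act on the same kinases as STEP, Dusp9 fell by 1.37 at 24 against 2 months (adjusted p = 0.014), a call lost without 24 month replicate 3 (adjusted p = 0.0524). It fell by 1.54 at 18 against 2 months (adjusted p = 0.0247), a call lost in 5 of the 10 fits. Of the 10, 0 were called between 24 and 18 months by edgeR and by DESeq2, and 3 had an unadjusted p below 0.05. One of them, Dusp1, averaged 47.5 ± 26.5 CPM at 24 months and 219 ± 97.1 CPM at 18 months (adjusted p = 0.449).

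Of the other non-receptor phosphatases 14 of 15 were testable, and 2 rose and 2 fell at 24 against 2 months, where 19.2% of all genes rose and 15.8% fell. Ptpn22, a lymphocyte phosphatase gene, rose by 1.62 in that comparison (adjusted p = 0.00445), also without each sample in turn, and by 1.19 at 18 against 2 months (adjusted p = 0.0293), a call lost in 6 of the 10 fits. Of the receptor type 19 of 20 were testable, with 7 higher and 2 lower at 24 against 2 months and 5 higher and 1 lower at 18 against 2 months. In the latter comparison 6.04% of all genes rose and 5.51% fell. Ptpru had 1.48 to 2.02 CPM at 2 months, 7.83, 9.3 and 37.1 CPM at 18 months, and 35.7, 21.8 and 40.2 CPM at 24 months. Its 24 and 18 month samples overlapped and both ages lay above 2 months. It rose by 4.26 at 24 against 2 months (adjusted p = 0.00207) and by 3.40 at 18 against 2 months (adjusted p = 0.012). Ptprv, also of the receptor type, rose by 2.33 at 24 against 2 months (adjusted p = 0.00223). These calls of Ptpru and Ptprv held without each sample in turn. The other receptor-type calls at 18 against 2 months were lost in 2 to 7 of the 10 fits. Between 24 and 18 months edgeR called 0 phosphatases of either type, and 4 of the receptor type and 0 of the other had an unadjusted p below 0.05. Ptprt, which DESeq2 called, had 11.8, 9.79 and 10.5 CPM at 24 months and 3.61, 5.36 and 5.17 CPM at 18 months (log2 fold change 1.18, adjusted p = 0.389). Its mean level was 0.401, 0.374 and 0.848 CPM per kb at 2, 18 and 24 months. Its rise of 1.08 at 24 against 2 months was called without each sample in turn, but not in the replicate block fit.

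Over the 8 lists together 99 of 102 genes were tested. Between 24 and 18 months 0 were called by edgeR, 15 had an unadjusted p below 0.05 and DESeq2 called 2. The share of all genes at that unadjusted threshold is not given, so the 15 cannot be read as an excess. The median log2 fold change was -0.05, where that of all genes was 0.03. Shares called were 36.4% at 24 against 2 months, where 35% of all genes were called, and 12.1% at 18 against 2 months, where 11.6% of all genes were called, so both were near those of all genes. The 36 calls at 24 against 2 months became 20 without 24 month replicate 2, and the 12 at 18 against 2 months became 2 without 2 month replicate 1.

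The 10 genes with established symbols whose profiles over the 10 samples were nearest to that of Ptpn5 lie on other chromosomes. Likeness was the root mean square difference between log2 CPM profiles, each centred on its own mean. It carries no test, and all profiles share the same libraries and depths. Over 20330 genes the median difference from Ptpn5 was 1.5, and that of a flat profile was 1.47. The nearest was Phyhip, which encodes a phytanoyl-CoA hydroxylase interacting protein, at 0.43. It had 4.83 to 11.3 CPM at 2 months, 12, 7.54 and 23.7 CPM at 18 months, and 66.6, 51.7 and 45.9 CPM at 24 months.

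Muc3a followed at 0.44, with 0.0812 to 0.186 CPM at 2 months, 0.221 to 0.398 CPM at 18 months, and 1.23, 1.68 and 0.872 CPM at 24 months. Klhl31, a kelch-like gene known from muscle, was at 0.51, with 103, 208 and 69.4 CPM at 24 months and 17.1, 26.5 and 42.2 CPM at 18 months. In Phyhip, Muc3a and Klhl31 the 24 month samples lay above every younger sample, as in Ptpn5. The same held for the rest of the 10 except Adgrg7. The 10 were chosen by likeness to Ptpn5, so this largely follows from the choice. The 24 month values of Phyhip, Muc3a and Klhl31 spread more widely than those of Ptpn5. The others were Il22ra1 (interleukin 22 receptor, 0.58), the non-coding Snhg11 (0.59), Galnt5 (a mucin-type glycosyltransferase, 0.59), Hmcn2 (0.61), Adgrg7 (an adhesion G protein-coupled receptor, 0.64), Cpne4 (a copine, 0.65) and Myom3 (a myomesin of the sarcomere, 0.65). The log2 fold changes of the 10 at 24 against 18 months ran from 1.23 in Adgrg7 to 2.30 in Snhg11, each below the 2.70 of Ptpn5. Grin2b lay outside the 10, at 0.73 and rank 39, but much nearer than the median gene at 1.5. Membership depended on single samples, and 4 of the 10 stayed among the nearest when 24 month replicate 3 was left out.

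**Figure D5:**
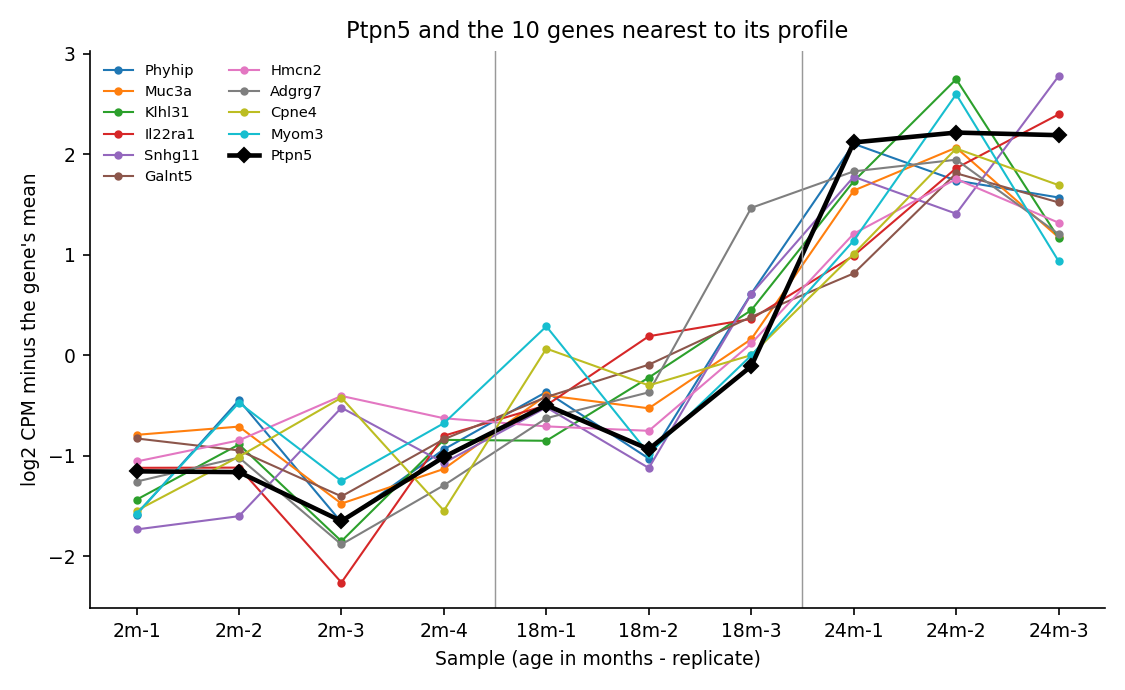
Centred log2 CPM (y axis) of Ptpn5 (black) and of the 10 genes nearest to its profile (colours) in the 10 samples (x axis); vertical lines part the ages and the joining lines only guide the eye. Ptpn5 is level across the 3 samples at 24 months, where its SD of log2 CPM is 0.05, and the other lines diverge there.

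Markers of 18 cell types that a whole ovary or its surroundings could hold gave 0 calls among 115 tested at 24 against 18 months by edgeR. Of them 16 had an unadjusted p below 0.05, a count given without the share of all genes. The 12 neuron markers summed to 21.2 to 44.9 CPM at 2 months, 23.9 to 31.5 CPM at 18 months and 28.1 to 55.4 CPM at 24 months. The 9 markers of striatal medium spiny neurons, the cells for which STEP was named, summed to 106 to 149 CPM at 2 months, 130 to 229 CPM at 18 months and 114 to 189 CPM at 24 months. Drd1 and Drd2, the dopamine receptors that define those neurons, had at most 10 and 5 counts in any sample. Sums at 24 and 18 months overlapped in both lists, and the part of such cells in the Ptpn5 difference was not tested.

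The 7 mast cell markers summed to 209, 41.8 and 150 CPM at 24 months and 33.5 to 63.3 CPM at 18 months. The sum of 24 month replicate 2 thus lay within the 18 month range, which does not give the level of each marker. The markers' median log2 fold change was 5.57 at 24 against 18 months over the 5 that could be tested, 4 of which had an unadjusted p below 0.05 and 0 of which were called by edgeR. At 24 against 2 months 4 of the 5 were called higher, where 19.2% of all genes were. Some of these calls were lost with no count filter or without 1 sample. The part of mast cells in the Ptpn5 difference was not tested. The 8 oviduct markers summed to 34, 96.2 and 848 CPM at 24 months and 29.4 to 122 CPM at 18 months. The 6 corpus luteum markers summed to 3320 to 13700 CPM at 24 months and 15300 to 28300 CPM at 18 months, the only list of 18 whose 24 and 18 month sums did not overlap. Its part in the Ptpn5 difference was not tested. Against 2 months, the 24 month sums were higher without overlap in 7 lists and lower in 2, with 46 of 115 markers called higher and 19 lower, where 19.2% and 15.8% of all genes were, and their part in the Ptpn5 difference was not tested either.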

How the data were processed

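Whole ovary RNA was extracted with Trizol and columns, and stranded mRNA libraries were made, per the labels' protocols. Raw counts of each gene and library were deposited by the authors. The submitters' processing notes name FastQC, cutadapt, STAR, HTSeq and mm10, with no versions or strand setting. Of the table's identifiers 54079 were in GENCODE M21, 52824 with the same coordinates. From the counts, edgeR 4.0.16 in R 4.3.3 was run with filterByExpr, TMM, and a robust quasi-likelihood F-test of all 3 ages in 1 fit (7 residual degrees of freedom, two-sided, Benjamini-Hochberg over all 20331 genes, threshold 0.05). The SE is the size of the log2 fold change over the root of F. For likeness, 2 was the prior count of log2 CPM. Poisson intervals (95%) cover counting error only. The code was tested on simulated data. Deviations of 24 and 18 month samples with the same replicate number correlated at 0.398, 0.283 and 0.148. With different numbers they correlated at -0.339 to 0.144, the highest being close to the lowest same-number value. The numbers, taken from the labels, were counted as pairs there on this weak basis, and no label says what a number marks. Fits do not include them unless the replicate block is named. Alternatives were DESeq2 1.42.0, other scaling and filters, the replicate block, libraries kept apart, and omitted samples. Named genes were Ptpn5, its nearest tested neighbours, the 10 most alike, members of the family and substrate lists, and, per other list and comparison, members with the smallest adjusted p; called neighbours beyond these, and Map2k1, Map2k2 and Nras, were named after their values were seen. Ptpn5, the lists and the rules were chosen with earlier results of these data known. Some list members are not reported here by name.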

Additional observations from a re-analysis of the deposited data

How the results depend on the processing

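The log2 fold changes of Ptpn5 kept their direction under all 18 alternatives run in each comparison. No pair of ages overlapped and these samples chose the gene, so the direction could hardly change and its constancy is no support. Leaving out 1 sample gave log2 fold changes of 2.50 to 2.92 at 24 against 18 months. At 24 against 2 months these were 3.32 to 3.55, and at 18 against 2 months 0.54 to 0.96. In the replicate block fit, with numbers counted as pairing the 24 and 18 month samples, the log2 fold changes of Ptpn5 were 2.71, 3.54 and 0.83. Its own adjusted p at 24 against 18 months ran from 7.62e-25 in DESeq2 to 0.524 in the replicate block fit. It was below 0.05 in 5 of the 8 alternatives other than the omissions of 1 sample. With only 24 and 18 month samples in the fit, 1 of these 8, it was 0.464 (edgeR). The number of genes called at 24 against 18 months, 1, became 0 with library totals, 0 in the replicate block fit, 0 with only these ages in the fit and 187 with DESeq2, and 0 to 2 without 1 sample; it was 0 without 2 month replicates 1, 2 or 4, 18 month replicates 1 or 2, or 24 month replicates 2 or 3.

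At 18 against 2 months, where replicate numbers showed no pairing (same-number correlations of -0.0576 to 0.0741), 2349 calls became 1034 in the replicate block fit, 4052 with DESeq2 and 4000 with libraries 3 and 4 apart, and ranged from 375 without 18 month replicate 3 to 2748 without 24 month replicate 3; they were 382, 614 and 687 without 2 month replicates 1, 2 and 4, and 730 without 18 month replicate 2. At 24 against 2 months 7120 calls ranged from 4283 without 24 month replicate 3 to 7467 without 24 month replicate 1, with 4537 without 2 month replicate 1 and 4656 without 24 month replicate 2. Neighbour calls at 24 against 18 months were 1 with DESeq2 and 0 whichever sample was left out. The 7 at 24 against 2 months became 4 with library totals and 4 to 8 without 1 sample. The 3 at 18 against 2 months became 1 in the replicate block fit, 6 with DESeq2, 6 with libraries apart and 0 to 3 without 1 sample. Pathway calls at 24 against 18 months were 2 with DESeq2. The 36 at 24 against 2 months became 20 to 37 without 1 sample. The 12 at 18 against 2 months became 3 in the replicate block fit, 20 with DESeq2, 21 with libraries apart and 2 to 14 without 1 sample. Of the 10 genes most like Ptpn5, 4 stayed with Pearson's r as the measure and 4 to 9 without 1 sample. Among genes named in the text, the 18 against 2 month calls of Ptpn7, Dusp9, Etv5, Egr2, Hras, Ptpn22, Kcnc1 and Nomo1 and the 24 against 2 month calls of Map2k1, Map2k2, Nras and Gtf2h1 were lost in the replicate block fit, and those of Ptpn7, Etv5, Hras and Nomo1 (18 against 2 months), Ppp3cb and Nras (24 against 2 months) with no count filter; those of Map2k1, Map2k2 and Nras (24 against 2 months) and Nomo1 (18 against 2 months) were lost with library totals, and that of Map2k2 with only these ages in the fit. The cause of these shifts was not tested.

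Counts limit Ptpn5 more at 2 and 18 months than at 24: it had 154 counts in all at 2 months, 154 at 18 months and 1366 at 24 months. With 7 residual degrees of freedom, a p that misses the threshold does not show that levels were alike.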
